A study of Lotus japonicus with 24 samples.

Results

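The comparison described here is that of shoots of *Ljasn1-2* plants with shoots of wild-type (WT) plants of *Lotus japonicus*, a model legume, both fed with mineral nitrogen. It covered 6 of the 24 RNA-seq libraries of the series, 3 per genotype, and every gene of the deposited table, 30243 in all, with no choice of genes. Of these, 16159 genes reached at least 1 FPKM (fragments scaled by gene length and by library) in at least 3 of the 6 libraries and were tested. *Ljasn1-2* carries a LORE1 retrotransposon in exon 8 of *LjASN1*, a gene for asparagine synthetase. It is a single line, so whatever else it carries in its genome goes with the genotype, although the study's methods state that insertions elsewhere were removed by genotyping. Both genotypes were ecotype Gifu and grew under non-symbiotic (NS) conditions, without rhizobia, on 5 mM NH4NO3 and 3 mM KNO3. RNA for a library came from 10 plants pooled from 2 pots, and n = 3 pools per genotype holds for every value below. The sample labels give an age of 40 days and a harvest after 4 h of light, whereas the study's methods give 26 days and 8 h. The other 18 libraries came from roots of the same treatment and from shoots and roots of symbiotic (S) plants, which were nodulated by *Mesorhizobium loti* and received no combined nitrogen. They are used here only to set the NS shoots beside them. For the S plants the labels also give 40 days, whereas the study's methods give a later harvest than the 26 days of the NS plants.

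Asparagine synthetase transfers the amide nitrogen of glutamine to aspartate. The asparagine made carries much nitrogen per carbon, and in temperate legumes such as *Lotus* it is the main form in which nitrogen moves from root to shoot and is stored. In the shoot it is broken down again by asparaginases, which release ammonium for the synthesis of other amino acids.

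The 6 libraries held 46.4, 39.6 and 66.8 M reads on genes in *Ljasn1-2* shoots, against 53.0, 41.0 and 43.2 M in WT shoots. Pearson's r between libraries of one genotype was 0.976 to 0.994 across genes on the log2 scale, and the median coefficient of variation between pools was 14.2% in *Ljasn1-2* and 14.2% in WT. In both genotypes the library numbered 1 stood apart from those numbered 2 and 3. Deviations from the genotype mean correlated by 0.69, 0.47 and 0.45 between libraries with the same number, and between -0.62 and -0.49 wherever a library numbered 1 met one numbered 2 or 3. Between the libraries numbered 2 and 3 of the opposite genotypes the values were 0.49 and 0.31, so that same-numbered and different-numbered libraries were told apart only by number 1. Since each same-numbered pair correlated positively, the numbers were taken as pairs, but for numbers 2 and 3 this pairing is an assumption that the values do not decide. Counts and p-values with the block rest on it. A fit with the number as a replicate block was run beside the fit without it. Its adjusted p stands beside each gene described here whose call it changes, and its counts beside the lists. Photosystem and RuBisCO genes, chosen as markers of green shoot tissue, were abundant in all 6 libraries. Their sums were 54925, 49212 and 42779.8 FPKM in *Ljasn1-2* shoots, against 61908, 55146 and 56907 FPKM in WT shoots, lower in *Ljasn1-2* in each same-numbered pair although 0 of the 24 tested genes passed the test. None of the 5 Casparian strip genes, which mark root endodermis, had a read in the 6 libraries, and no leghemoglobin gene, the oxygen carrier of nodules, exceeded 0.148 FPKM. Summed over the lists, root markers (2 of 11 tested, 7 at 0) had 33.8, 36.7 and 38.1 FPKM in *Ljasn1-2* shoots, against 33, 33.2 and 37.1 FPKM in WT shoots, and nodule markers (9 of 31 tested, 7 at 0) had 131, 123 and 119 FPKM, against 137, 123 and 123 FPKM in WT. Markers of flowers and seeds (21 of 95 tested, 25 at 0) had 905, 614 and 571 FPKM, against 996, 709 and 725 FPKM in WT, the highest being in library 1 of both genotypes, and none of these genes was called without the block. With it 1 rose, an AP1-type MADS-box gene (LotjaGi4g1v0256600) with 6.25, 5.86 and 5.7 FPKM, against 3.85, 3.65 and 2.12 FPKM in WT (adjusted p = 0.0295), and 1 fell, an Ole e I-like gene (LotjaGi3g1v0178100) with 4.57, 2.4 and 2.25 FPKM, against 6.34, 4.6 and 3.87 FPKM in WT (adjusted p = 0.0348). Over all tested genes 1.01% rose and 0.712% fell with the block. The part that a difference in tissue makeup may have in the results below was not tested, and in bulk tissue fewer cells of a type and less RNA per cell cannot be told apart.

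*LjASN1* (LotjaGi1g1v0118200), on the plus strand of chromosome 1 at 18678532 to 18685507 of the LjG1.1 assembly, had 24.6, 37.1 and 39.2 FPKM in *Ljasn1-2* shoots, against 472, 431 and 387 FPKM in WT shoots. In reads these are 3503, 4957 and 9441 in *Ljasn1-2* and 74263, 57998 and 53469 in WT. The targeted transcript was thus far lower in each library labelled *Ljasn1-2*, but it remained well above 0. The log2 fold change on the log2(FPKM + 1) scale used throughout was -3.66 ± 0.19 (± SE), with an adjusted p of 3.13e-04 in limma. The table gives 1 value for the whole gene, so reads before and after the insertion cannot be separated. Primers are known for the transcript and for the insertion: the first pair amplified *LjASN1* transcript, and the second genotyped the *Ljasn1-2* locus. They are shown because they define, at the sequence level, the gene and the allele that separate the groups, and no part of them is capitalised.
LjASN1_F: acttttactgttcaggatggaatagatg
LjASN1_R: ggaagtacaagtacccaccaaaaatctc
Ljasn1-2geno_F: ccttgcggcatgtttctgtgtgaa
Ljasn1-2geno_R: tggcaaccacaaaagctgctgaaca

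The other asparagine synthetase genes showed no difference that passed the test. *LjASN2* (LotjaGi6g1v0130800) had 4.73, 3.39 and 3.66 FPKM in *Ljasn1-2* shoots, against 5.42, 3.27 and 3.11 FPKM in WT shoots, and LotjaGi6g1v0088100 had 5.94, 6.57 and 5.69 FPKM, against 6.35, 6.57 and 6.43 FPKM in WT. The genotypes overlap for both, with log2 fold changes of 0.02 ± 0.19 and -0.08 ± 0.10 and adjusted p = 1 in limma. At the median standard error of 0.15 over all tested genes the data would not show small changes. *LjASN2* is moreover 1 of 17 tested genes for which a second placement of the lost decimal point was possible, and 0 of these 17 were called. The low-confidence gene models LotjaGi1g1v0413500_LC and LotjaGi1g1v0413600_LC have the same description and were at 0 in all 6 libraries. Among the genes of nitrogen assimilation and asparagine use, 29 of 40 were tested, and *LjASN1* was the 1 that passed. The most abundant asparaginase, LotjaGi5g1v0031100, had 204, 232 and 179 FPKM in *Ljasn1-2* shoots, against 168, 205 and 179.7 FPKM in WT shoots. These ranges overlap as well (log2 fold change 0.15 ± 0.16, adjusted p = 1), and the asparaginase genes were added after their values were seen.

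Across the genome, 70 of the 16159 tested genes passed an adjusted p of 0.05 in limma, or 0.433%. Of these, 55 (0.34%) were higher in *Ljasn1-2* shoots and 15 (0.0928%) were lower. For all 70 the 3 *Ljasn1-2* libraries lay apart from the 3 WT libraries, as they did for 1781 tested genes (11%). Without adjustment, 815 genes (5.04%) had a p under 0.05. With the replicate block the count was 278 (1.72%), of which 163 (1.01%) were higher and 115 (0.712%) lower, and it included all 70 with the same sign. These shares over all tested genes are the background for the counts in gene lists below. The median log2 fold change of all tested genes was -0.01, and 47.0% of them had a positive one. FPKM is scaled by library, so a shift shared by all genes would not be seen. A gene under 1 FPKM in all 3 libraries of one genotype passed the filter only through the other. It could therefore only be found higher in that other genotype. The call depended on single libraries for many genes: 30 of the 70, 26 higher and 4 lower, were called whichever library was left out. In the text a call lost on leaving out 1 library is given with the adjusted p that resulted, and calls with no such remark were kept. The p-values measure the spread between pools of plants.

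**Figure D1:**
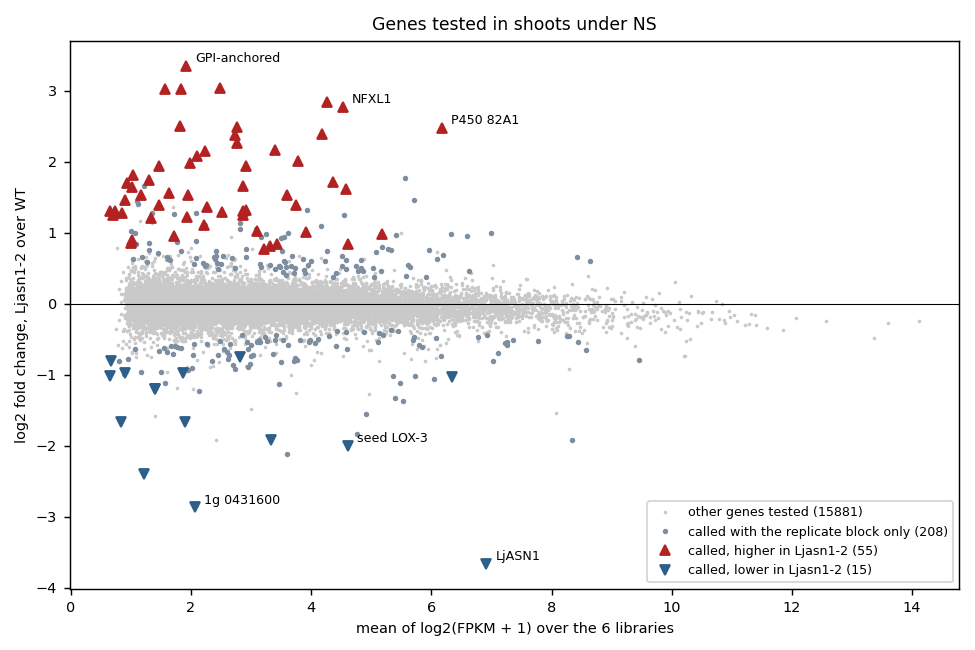
Log2 fold change of *Ljasn1-2* over WT shoots under NS conditions (y axis, log2(FPKM + 1) scale) against mean level (x axis) for the 16159 tested genes, 1 point per gene. Red and blue triangles are the 55 genes called higher and the 15 called lower, darker points are genes called only with the replicate block, and the rest lie around the median of -0.01.

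The lists with the most increases, 4 each, held proteins that join glutathione to reactive compounds or move such compounds out of the cytosol. Members of ABC transporter subfamily C carry glutathione conjugates and other organic anions into the vacuole. LotjaGi1g1v0018500, described as ABC transporter C family member 3, had 12.8, 14.9 and 17.7 FPKM in *Ljasn1-2* shoots, against 0.682, 1.17 and 1.05 FPKM in WT shoots (log2 fold change 3.03 ± 0.15, adjusted p = 3.13e-04). LotjaGi1g1v0018700, with the same description, lies 29658 bases further along chromosome 1 on the same strand. It had 36.2, 37.7 and 48.3 FPKM in *Ljasn1-2* shoots, against 7.48, 7.02 and 6.21 FPKM in WT shoots (log2 fold change 2.39 ± 0.14, adjusted p = 4.33e-04). Neither gene had any overlap between genotypes, and the lowest *Ljasn1-2* library was several-fold above the highest WT library. MATE transporters, named DETOXIFICATION in the annotation, export organic compounds in exchange for protons. LotjaGi5g1v0332900 (DETOXIFICATION 12) rose to 10.4, 8.94 and 12.2 FPKM in *Ljasn1-2* shoots, against 4.48, 3.41 and 3.13 FPKM in WT shoots (log2 fold change 1.30 ± 0.16, adjusted p = 0.0124). The call was lost without *Ljasn1-2* library 3 or WT library 2 or 3 (adjusted p = 0.0607 to 0.0671). LotjaGi2g1v0325300 (DETOXIFICATION 27) had 12.3, 11.8 and 12.5 FPKM, against 7.23, 5.99 and 6.3 FPKM in WT (log2 fold change 0.82 ± 0.11, adjusted p = 0.024), and lost its call without *Ljasn1-2* library 1, 2 or 3 or WT library 2 or 3 (adjusted p = 0.0628 to 0.148).

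Of the 48 tested genes among the 96 described as ABC C-type or MATE transporters, these 4 rose (background 0.34% higher) and 0 fell. The median log2 fold change of the list was 0.11, against -0.01 for all tested genes, and 33 of the 48 values were above 0. With the replicate block 6 rose (background 1.01% higher). Summed over the list, the levels were 308, 351 and 375 FPKM in *Ljasn1-2* shoots, against 247, 266 and 268 FPKM in WT shoots, so that each *Ljasn1-2* library exceeded each WT library. The sums include the 4 called genes, so they in part repeat those calls. Because the 2 ABCC3 genes are near each other and share a name, and how reads matching both were counted is not stated, their separate levels are uncertain.

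Glutathione S-transferases join glutathione to reactive compounds. Of 67 genes 39 were tested, 4 rose and 1 fell (background 0.34% higher and 0.0928% lower), with a list median of 0.04. LotjaGi5g1v0258300 reached 43.8, 37.7 and 76.2 FPKM in *Ljasn1-2* shoots, against 10.5, 3.57 and 6.01 FPKM in WT shoots (log2 fold change 2.83 ± 0.36, adjusted p = 0.0176). All 3 *Ljasn1-2* libraries were well above WT, but they were spread widely, and the call was lost without *Ljasn1-2* library 1 or 3 or WT library 3 (adjusted p = 0.0546 to 0.0817). Its neighbour LotjaGi5g1v0258400, 1280 bases away on the opposite strand, had 3.21, 3.4 and 7.44 FPKM, against 0.585, 0.257 and 0.38 FPKM in WT (log2 fold change 1.94 ± 0.26, adjusted p = 0.0238), and lost its call without *Ljasn1-2* library 2 or WT library 2 or 3 (adjusted p = 0.0567 to 0.109). LotjaGi6g1v0043900 (parA) had 6.45, 4.88 and 12.2 FPKM in *Ljasn1-2* shoots, against 0.735, 0.392 and 0.328 FPKM in WT shoots (log2 fold change 2.50 ± 0.28, adjusted p = 0.0089). This gene and LotjaGi5g1v0258400 passed the filter only through the *Ljasn1-2* libraries, so they could only be found higher there. LotjaGi4g1v0380400 (GST 23) rose by less, to 11.6, 9.48 and 12.8 FPKM, against 6.08, 4.78 and 4.29 FPKM in WT (log2 fold change 1.02 ± 0.15, adjusted p = 0.041), and its call did not hold without *Ljasn1-2* library 1, 2 or 3 or WT library 2 or 3 (adjusted p = 0.0741 to 0.196).

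One glutathione S-transferase moved the other way. LotjaGi6g1v0052500, of the plant-specific phi class (F11), fell to 5.35, 3.97 and 3.4 FPKM in *Ljasn1-2* shoots, against 24.7, 14.2 and 18 FPKM in WT shoots (log2 fold change -1.91 ± 0.21, adjusted p = 0.0089). The groups did not overlap, and the call was lost without *Ljasn1-2* library 2 (adjusted p = 0.0536). A gene for CLT3, LotjaGi1g1v0051100, whose Arabidopsis counterparts carry glutathione and its precursor out of plastids, had 1.94, 2.01 and 3.59 FPKM in *Ljasn1-2* shoots, against 0.0818, 0 and 0.0816 FPKM in WT shoots (log2 fold change 1.71 ± 0.18, adjusted p = 0.00867). It was close to undetected in WT and low in *Ljasn1-2*, and it passed the filter only through the *Ljasn1-2* libraries. Hydroquinone glucosyltransferases add glucose to small phenolic compounds, and a pair of genes so described also rose. LotjaGi1g1v0598900 had 12.1, 11.6 and 18.9 FPKM in *Ljasn1-2* shoots, against 3.4, 1.48 and 1.74 FPKM in WT shoots (log2 fold change 2.26 ± 0.25, adjusted p = 0.0089). LotjaGi1g1v0599100, 15284 bases away, had 9.95, 10.4 and 12.6 FPKM, against 4.39, 3.96 and 3.11 FPKM in WT (log2 fold change 1.32 ± 0.14, adjusted p = 0.00867). They were the 2 that rose among 51 tested of 104 UDP-glycosyltransferase genes, and the other members did not follow, as the list median was -0.10 and 33 of the 51 values were below 0. With the block 2 fell too (background 0.712% lower). Among them was LotjaGi6g1v0348600, a kaempferol galactosyltransferase, with 5.24, 5.54 and 4.81 FPKM in *Ljasn1-2* shoots, against 9.13, 8.12 and 8.56 FPKM in WT shoots (adjusted p = 0.0724 without and 0.0148 with the replicate block).

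**Figure D2:**
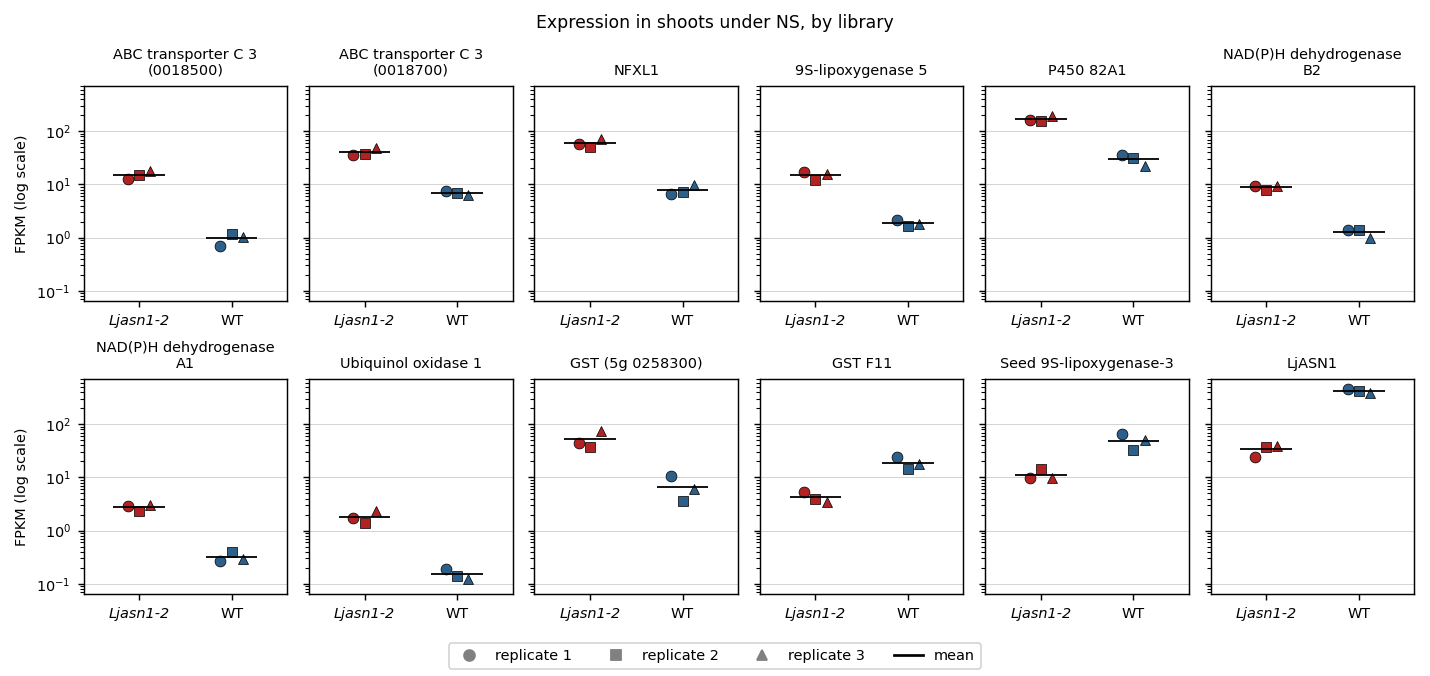
Level in each library (FPKM, log10 axis) of 12 genes named in the text, with the 3 *Ljasn1-2* shoot libraries left of the 3 WT shoot libraries, 1 symbol per replicate number and a line at the mean. For the ABCC3 gene LotjaGi1g1v0018500 the *Ljasn1-2* points lie at 12.8 to 17.7 FPKM and the WT points at 0.682 to 1.17 FPKM.

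A second group encoded enzymes of the alternative respiratory chain, by which plant mitochondria pass electrons to oxygen without pumping protons at the usual sites. Of 16 tested genes among 21 in this list, 3 rose (background 0.34% higher), 0 fell and the median was 0.00. LotjaGi6g1v0339200, an external alternative NAD(P)H dehydrogenase (NDB2), had 9.48, 7.88 and 9.5 FPKM in *Ljasn1-2* shoots, against 1.4, 1.38 and 0.97 FPKM in WT shoots (log2 fold change 2.15 ± 0.13, adjusted p = 4.95e-04). LotjaGi4g1v0050800, an internal counterpart (NDA1), had 2.93, 2.38 and 3.1 FPKM, against 0.265, 0.394 and 0.291 FPKM in WT (log2 fold change 1.53 ± 0.13, adjusted p = 0.00236). LotjaGi2g1v0344500, an alternative oxidase that accepts the electrons from ubiquinol, had 1.74, 1.37 and 2.38 FPKM, against 0.186, 0.142 and 0.122 FPKM in WT (log2 fold change 1.28 ± 0.15, adjusted p = 0.0121). NDB2, NDA1 and the oxidase were each higher in every *Ljasn1-2* library, all at low absolute levels. NDA1 and the oxidase passed the filter only through the *Ljasn1-2* libraries, so they could only be found higher there. The oxidase lost its call without WT library 2 or 3 (adjusted p = 0.0542 to 0.0732). The remaining 13 tested members did not pass. LotjaGi1g1v0348200, a mitochondrial uncoupling protein, had 5.85, 5.77 and 3.4 FPKM in *Ljasn1-2* shoots, against 11.9, 8.74 and 8.6 FPKM in WT shoots (log2 fold change -0.85 ± 0.20, adjusted p = 0.275, and 0.0148 with the replicate block). Summed over the list the genotypes overlapped, at 468, 416 and 368 FPKM in *Ljasn1-2* shoots, against 488, 414 and 392 FPKM in WT shoots.

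One further mitochondrial gene was among the largest increases. LotjaGi5g1v0075600, annotated as TIM14-1, a cochaperone of the motor that pulls proteins through the inner membrane, had 14, 5.42 and 9.95 FPKM in *Ljasn1-2* shoots, against 0.18, 0.27 and 0.293 FPKM in WT shoots (log2 fold change 3.03 ± 0.27, adjusted p = 0.00344). It was nearly silent in WT, passed the filter only through the *Ljasn1-2* libraries, and varied widely among the *Ljasn1-2* pools.

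Several large increases concerned oxidation of fatty acids and other small molecules. LotjaGi1g1v0772900, a probable 9-lipoxygenase, which adds oxygen to linoleate, had 17.1, 12.3 and 16 FPKM in *Ljasn1-2* shoots, against 2.13, 1.64 and 1.79 FPKM in WT shoots (log2 fold change 2.49 ± 0.15, adjusted p = 4.33e-04). LotjaGi2g1v0068000, a probable peroxygenase, an enzyme that uses fatty acid hydroperoxides, had 25, 21.4 and 18.1 FPKM, against 5.66, 3.52 and 3.05 FPKM in WT (log2 fold change 2.17 ± 0.20, adjusted p = 0.00393). A different lipoxygenase went the opposite way. LotjaGi3g1v0420500 (seed 9-lipoxygenase-3) fell to 9.82, 14.4 and 9.89 FPKM in *Ljasn1-2* shoots, against 65.1, 33.1 and 50.2 FPKM in WT shoots (log2 fold change -2.0 ± 0.25, adjusted p = 0.0167), and lost its call without *Ljasn1-2* library 1 or 3 or WT library 3 (adjusted p = 0.0626 to 0.0961). Among 44 tested of 71 lipoxygenase and jasmonate genes these were the 1 that rose and the 1 that fell, with a list median of -0.06. With the block 3 fell (background 0.712% lower). They included LotjaGi5g1v0021300, an allene oxide synthase that makes the jasmonate precursor, at 11.1, 10.3 and 11 FPKM in *Ljasn1-2* shoots, against 16.2, 16 and 15.4 FPKM in WT shoots (log2 fold change -0.51 ± 0.10, adjusted p = 0.133 without and 0.0175 with the replicate block).

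Cytochrome P450 enzymes, which oxidise many plant metabolites, were represented by 81 tested of 173 genes. LotjaGi2g1v0251800 (P450 82A1) was the most abundant gene among the large increases, with 166, 156 and 191 FPKM in *Ljasn1-2* shoots, against 36.6, 32.1 and 22.5 FPKM in WT shoots (log2 fold change 2.48 ± 0.19, adjusted p = 0.0021). LotjaGi5g1v0008800 (P450 71AP13) had 14, 11.7 and 14.5 FPKM, against 6.13, 7.28 and 7.7 FPKM in WT (log2 fold change 0.84 ± 0.13, adjusted p = 0.0458), and was not called without any 1 of the 6 libraries (adjusted p = 0.0738 to 0.248). These 2 rose (background 0.34% higher) and 0 fell in the list, while its median was -0.08. LotjaGi4g1v0082600_LC (P450 89A9) had 106, 96.5 and 137 FPKM in *Ljasn1-2* shoots, against 51.9, 51.3 and 66 FPKM in WT shoots, apart in every library (log2 fold change 0.98 ± 0.17, adjusted p = 0.0819 without and 6.23e-04 with the replicate block). LotjaGi3g1v0490800, a tropinone reductase homologue of the short-chain dehydrogenase family, had 22.9, 23.1 and 35.1 FPKM, against 7.94, 5.08 and 4.78 FPKM in WT (log2 fold change 2.02 ± 0.22, adjusted p = 0.00867).

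Regulators of transcription were few among the called genes. LotjaGi4g1v0465300, an NF-X1-type zinc finger protein (NFXL1) that modulates stress and defence responses in Arabidopsis, had 58.3, 50.4 and 70.6 FPKM in *Ljasn1-2* shoots, against 6.66, 7.23 and 9.91 FPKM in WT shoots (log2 fold change 2.77 ± 0.18, adjusted p = 5.81e-04). LotjaGi5g1v0184300 (ERF14), an ethylene-responsive factor, had 3.81, 2.88 and 3.98 FPKM, against 0.244, 0.314 and 0.501 FPKM in WT (log2 fold change 1.75 ± 0.14, adjusted p = 0.00236). LotjaGi5g1v0248300 (RAP2-3), of the ERF group that mediates hypoxia responses in Arabidopsis, had 22.3, 18.3 and 18.5 FPKM, against 8.65, 5.0 and 5.29 FPKM in WT (log2 fold change 1.53 ± 0.19, adjusted p = 0.0168). The first 2 were called whichever library was left out, while RAP2-3 was not called without *Ljasn1-2* library 1, 2 or 3 or WT library 2 or 3 (adjusted p = 0.0603 to 0.0829). Among AP2/ERF factors 81 of 156 were tested, 2 rose (background 0.34% higher) and 0 fell, at a median of -0.02. Of these 2, ERF14 passed the filter only through the *Ljasn1-2* libraries, so it could only be found higher there. Of 24 tested NAC factors, out of 66, 2 rose (background 0.34% higher) and 0 fell, at a median of 0.09. LotjaGi3g1v0077200 (NAC 56) had 11.2, 6.54 and 6.61 FPKM in *Ljasn1-2* shoots, against 2.29, 2.72 and 2.92 FPKM in WT shoots (log2 fold change 1.29 ± 0.20, adjusted p = 0.0435), and lost its call without *Ljasn1-2* library 2 or 3 or WT library 1, 2 or 3 (adjusted p = 0.0874 to 0.148). LotjaGi4g1v0062200 (NAC 73), whose Arabidopsis counterpart acts in secondary wall formation, had 4.72, 4.09 and 5.66 FPKM, against 1.31, 1.73 and 1.45 FPKM in WT (log2 fold change 1.22 ± 0.14, adjusted p = 0.0092), and lost its call without WT library 3 (adjusted p = 0.0564). None of the 89 tested MYB and 47 tested WRKY factors was called in either direction without the block. At an unadjusted p under 0.05 the MYB list held 2 higher and 1 lower and the WRKY list 2 higher and 3 lower (background 5.04% in either direction). The background with the block was 1.72%. With the block MYB14 (LotjaGi6g1v0005400), at 6.04, 5.42 and 6.27 FPKM in *Ljasn1-2* shoots, against 3.22, 2.2 and 1.43 FPKM in WT shoots, was called (adjusted p = 0.0804 without and 0.0148 with it). So was 1 WRKY gene, WRKY 3 (LotjaGi1g1v0694700), at 3.16, 4.01 and 3.82 FPKM in *Ljasn1-2* shoots, against 5.2, 5.88 and 6.06 FPKM in WT shoots (adjusted p = 0.248 without and 0.0271 with it).

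Carbohydrate transport and glycolysis contributed single genes. LotjaGi1g1v0335600 (SWEET10), a passive sugar exporter, had 14.4, 19.4 and 9.99 FPKM in *Ljasn1-2* shoots, against 1.93, 0.905 and 3.46 FPKM in WT shoots (log2 fold change 2.37 ± 0.32, adjusted p = 0.0263). LotjaGi2g1v0074800 (plastidic glucose transporter 4), which exports glucose from starch breakdown, had 31.4, 39.9 and 37.5 FPKM, against 6.6, 10.8 and 15.2 FPKM in WT (log2 fold change 1.71 ± 0.25, adjusted p = 0.039). LotjaGi4g1v0029600 (sugar transporter N3), another SWEET protein, fell to 0.294, 0.278 and 0.434 FPKM, against 1.63, 1.93 and 1.31 FPKM in WT (log2 fold change -0.97 ± 0.13, adjusted p = 0.028). N3 passed the filter only through the WT libraries, so it could only be found lower in *Ljasn1-2*. None of the 3 calls was kept throughout. SWEET10 lost its call without *Ljasn1-2* library 1 or 2 or WT library 1 (adjusted p = 0.0569 to 0.097), the glucose transporter without *Ljasn1-2* library 1, 2 or 3 or WT library 2 (adjusted p = 0.0782 to 0.184), and N3 without any 1 of the 6 libraries (adjusted p = 0.064 to 0.145). In the list of 43 tested sugar transport genes, out of 99, 2 rose and 1 fell (background 0.34% higher and 0.0928% lower), and the median was -0.03. LotjaGi6g1v0100900, a cytosolic glyceraldehyde-3-phosphate dehydrogenase, was the 1 of 58 tested glycolysis genes that passed. It had 40.2, 35.2 and 47.9 FPKM in *Ljasn1-2* shoots, against 14.9, 9.85 and 13.8 FPKM in WT shoots (log2 fold change 1.61 ± 0.18, adjusted p = 0.0089). LotjaGi1g1v0680200, an enolase, had 589, 423 and 478 FPKM, against 360.1, 291 and 320.2 FPKM in WT (log2 fold change 0.61 ± 0.18, adjusted p = 0.519 without and 0.0144 with the replicate block).

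Other increases fell in no common group. LotjaGi1g1v0381100 (flotillin-like 4), whose counterpart in *Medicago* is needed for infection by rhizobia, had 3.46, 2.23 and 2.97 FPKM in *Ljasn1-2* shoots that had met no rhizobia, against 0.0666, 0.0908 and 0.118 FPKM in WT shoots (log2 fold change 1.82 ± 0.14, adjusted p = 0.00221). LotjaGi5g1v0263900, a copy of the translation elongation factor EF1-alpha at low level, had 2.76, 2.11 and 2.9 FPKM, against 0.165, 0.109 and 0.159 FPKM in WT (log2 fold change 1.64 ± 0.13, adjusted p = 0.00221). EF1-alpha genes are alike, so reads from other copies may be included. This copy and flotillin-like 4 passed the filter only through the *Ljasn1-2* libraries, so they could only be found higher there. Calls were also made for LotjaGi2g1v0353700 (PIN-LIKES 7, of a family of auxin carriers in the endoplasmic reticulum), with a log2 fold change of 1.25 ± 0.14, and LotjaGi6g1v0325900 (a glutamate receptor-like channel), with 0.95 ± 0.14. The carrier lost its call without *Ljasn1-2* library 2 or WT library 3 (adjusted p = 0.0525 to 0.0528) and the channel without any 1 of the 6 libraries (adjusted p = 0.0626 to 0.153). Cell wall genes, of which 129 of 299 were tested, had 1 call, the polygalacturonase LotjaGi4g1v0429500 at 8.6, 13 and 15.1 FPKM in *Ljasn1-2* shoots, against 2.74, 3.06 and 3.58 FPKM in WT shoots (log2 fold change 1.65 ± 0.19, adjusted p = 0.0117). It lost the call without *Ljasn1-2* library 2 (adjusted p = 0.0723). Peroxidase 55 (LotjaGi1g1v0624800) was the 1 call among 30 tested class III peroxidases, with 6.49, 5.85 and 5.13 FPKM, against 1.83, 1.89 and 2.86 FPKM in WT (log2 fold change 1.11 ± 0.15, adjusted p = 0.0292), and it was lost without *Ljasn1-2* library 1, 2 or 3 or WT library 1 or 2 (adjusted p = 0.0569 to 0.138).

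The 15 decreases were smaller in number and included few described enzymes. Besides *LjASN1*, the glutathione S-transferase F11, seed lipoxygenase-3 and N3, they held LotjaGi1g1v0484100, an auxin efflux carrier (PIN5), with 1.13, 1.8 and 1.95 FPKM in *Ljasn1-2* shoots, against 4.56, 4.2 and 3.64 FPKM in WT shoots (log2 fold change -0.98 ± 0.15, adjusted p = 0.0485). LotjaGi6g1v0027500 (EIX1), a receptor-like protein that in tomato perceives a fungal xylanase, had 4.01, 4.62 and 4.75 FPKM, against 8.18, 8.49 and 7.87 FPKM in WT (log2 fold change -0.75 ± 0.11, adjusted p = 0.0341). LotjaGi4g1v0331000 (flavonoid 3'-monooxygenase) had 0.533, 0.916 and 0.773 FPKM, against 3.02, 2.75 and 3.16 FPKM in WT (log2 fold change -1.20 ± 0.13, adjusted p = 0.00828). The genotypes were apart for all 3. The monooxygenase passed the filter only through the WT libraries, so it could only be found lower in *Ljasn1-2*. PIN5 lost its call without any 1 of the 6 libraries (adjusted p = 0.069 to 0.194), EIX1 without any 1 of the 6 libraries (adjusted p = 0.0598 to 0.188) and the monooxygenase without WT library 3 (adjusted p = 0.051). On the log2(FPKM + 1) scale, which compresses low levels, the largest decrease after *LjASN1* was in LotjaGi1g1v0431600, which has no description, at 0.668, 0.269 and 0.746 FPKM in *Ljasn1-2* shoots, against 6.65, 12.6 and 12.7 FPKM in WT shoots (log2 fold change -2.87 ± 0.24, adjusted p = 0.00272). LotjaGi3g1v0243700_LC, also without description, had no read in the *Ljasn1-2* libraries and 2.61, 1.67 and 2.32 FPKM in WT. It was at least 36.1-fold lower in *Ljasn1-2*, counting 3 reads per library as the floor, and the only tested gene at 0 throughout *Ljasn1-2*. This gene and LotjaGi1g1v0431600 passed the filter only through the WT libraries. With a pseudocount of 0.1 FPKM the order turned, at -5.28 for LotjaGi1g1v0069900_LC, -4.50 for LotjaGi3g1v0243700_LC, -4.06 for LotjaGi1g1v0431600 and -3.69 for *LjASN1* (LotjaGi1g1v0118200).

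The other decreases and 4 of the 20 largest increases were in genes with little or no annotation. LotjaGi4g1v0295400_LC had 9.51, 9.91 and 4.25 FPKM in *Ljasn1-2* shoots, against 0.0471, 0.0275 and 0.0268 FPKM in WT shoots (log2 fold change 3.03 ± 0.26, adjusted p = 0.00273). It passed the filter only through the *Ljasn1-2* libraries. LotjaGi1g1v0545800 had 8.14, 6.46 and 9.04 FPKM, against 1.76, 0.805 and 0.831 FPKM in WT, and LotjaGi5g1v0169200_LC had 5.65, 6.2 and 9.25 FPKM, against 1.03, 1.09 and 0.882 FPKM in WT (log2 fold changes 2.08 ± 0.19 and 1.98 ± 0.17). All 3 were called whichever library was left out. LotjaGi2g1v0025100_LC (log2 fold change 1.94 ± 0.28) lost its call without *Ljasn1-2* library 1, 2 or 3 or WT library 1 or 3 (adjusted p = 0.0573 to 0.145). It overlaps the called gene LotjaGi2g1v0025000 on the opposite strand. That gene lost its own call without *Ljasn1-2* library 1, 2 or 3 or WT library 1 or 2 (adjusted p = 0.0724 to 0.196). Among the decreases LotjaGi1g1v0069900_LC was nearly absent from *Ljasn1-2* shoots, with 0.0131, 0.028 and 0 FPKM, against 6.84, 3.19 and 3.63 FPKM in WT shoots (log2 fold change -2.40 ± 0.22, adjusted p = 0.00393). It passed the filter only through the WT libraries. LotjaGi5g1v0096500_LC, a putative transposase, had 0.518, 1.05 and 1.97 FPKM, against 4.3, 6.66 and 6.28 FPKM in WT, and LotjaGi2g1v0201900 had 52.8, 50.8 and 64.5 FPKM, against 138, 106 and 106 FPKM in WT (log2 fold changes -1.66 ± 0.25 and -1.04 ± 0.16). LotjaGi2g1v0181100_LC, LotjaGi4g1v0036000_LC and LotjaGi4g1v0144400_LC had log2 fold changes of -1.21 ± 0.18, -1.01 ± 0.13 and -0.80 ± 0.12 from WT levels of a few FPKM or less. Of these, the transposase lost its call without *Ljasn1-2* library 1 or 2 or WT library 2 or 3 (adjusted p = 0.069 to 0.171), LotjaGi2g1v0201900 without any 1 of the 6 libraries (adjusted p = 0.064 to 0.242), LotjaGi2g1v0181100_LC without *Ljasn1-2* library 1, 2 or 3 or WT library 2 or 3 (adjusted p = 0.0862 to 0.196), LotjaGi4g1v0036000_LC without any 1 of the 6 libraries (adjusted p = 0.0604 to 0.119) and LotjaGi4g1v0144400_LC without any 1 of the 6 libraries (adjusted p = 0.0887 to 0.213).

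**Figure D3:**
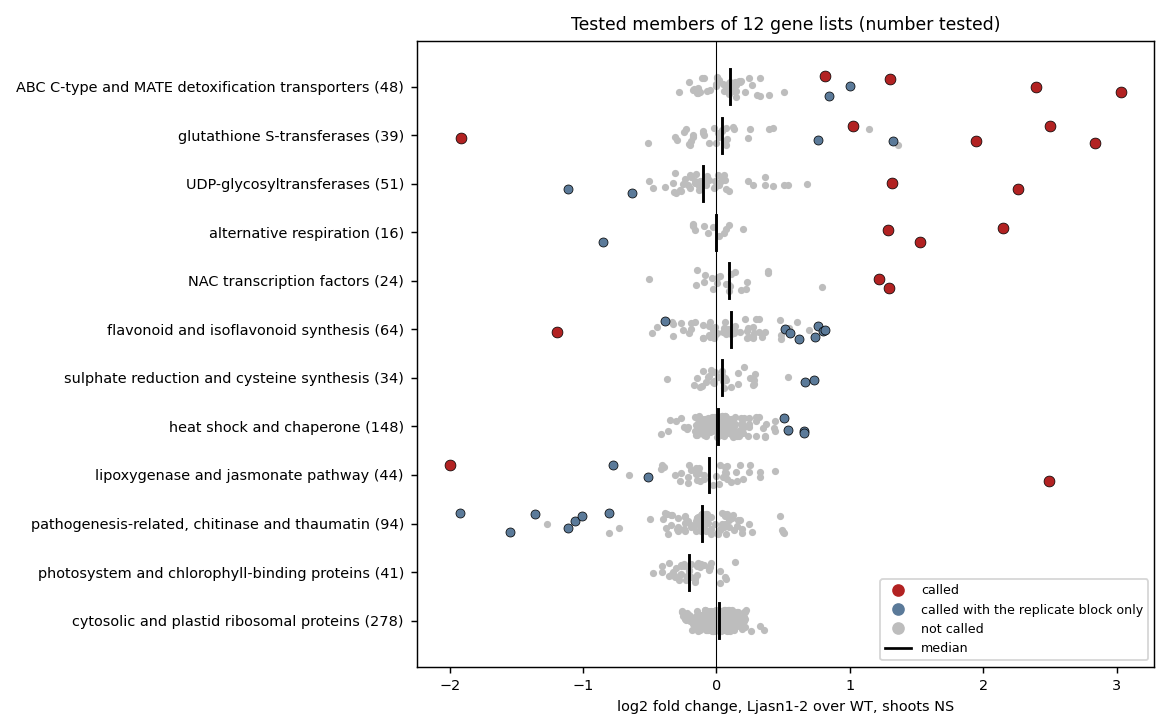
Log2 fold change of *Ljasn1-2* over WT shoots (x axis) for each tested member of 12 gene lists (y axis, number tested in parentheses), 1 point per gene and a line at the list's median. The ABC C-type and MATE list and the glutathione S-transferase list each have 4 genes called higher without the block (red), and in the pathogenesis-related list 7 genes are called lower only with it (blue).

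Some lists had calls only with the replicate block, which removes the difference between the numbered libraries. Pathogenesis-related, chitinase and thaumatin genes, products made in defence against microbes, had 94 of 140 tested and 0 called in either direction without the block. At an unadjusted p under 0.05, 3 were higher and 12 lower (background 5.04% in either direction). With the block 7 of the 94 fell (background 0.712% lower). Their median log2 fold change was -0.11, and 66 of 94 values were below 0. The summed level was 5557, 4954 and 5101 FPKM in *Ljasn1-2* shoots, against 10025, 5818 and 7286 FPKM in WT shoots. Every *Ljasn1-2* sum was below every WT sum, and the library of WT numbered 1 stood far above the others. LotjaGi6g1v0345200, pathogenesis-related protein 1, had 98.8, 191 and 240.3 FPKM in *Ljasn1-2* shoots, against 971, 419 and 617 FPKM in WT shoots (log2 fold change -1.92 ± 0.39, adjusted p = 0.15 without and 0.0433 with the replicate block). LotjaGi4g1v0137500, an endochitinase that cleaves fungal wall chitin, had 20.01, 32.5 and 32.9 FPKM, against 83.8, 48.1 and 96.9 FPKM in WT (adjusted p = 0.177 without and 0.0305 with it).

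Flavonoid and isoflavonoid genes, 64 tested of 121, had 1 call without the block (lower) and 9 with it, at a list median of 0.11. Of the 9, 7 were higher and 2 lower (background with the block 1.01% higher and 0.712% lower). LotjaGi6g1v0022500, a deoxychalcone synthase that leads to the isoflavonoids of legumes, had 44.8, 50.9 and 45.4 FPKM in *Ljasn1-2* shoots, against 33.2, 22.6 and 24.9 FPKM in WT shoots (log2 fold change 0.80 ± 0.16, adjusted p = 0.133 without and 0.0218 with the replicate block). LotjaGi2g1v0429400, leucoanthocyanidin dioxygenase on the branch to anthocyanins, had 17.3, 16.8 and 19.5 FPKM, against 23, 23 and 24.9 FPKM in WT (log2 fold change -0.39 ± 0.11, adjusted p = 0.473 and 0.0404). The members therefore did not move one way.

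Genes of sulphate reduction and cysteine synthesis, which supply the cysteine of glutathione, had 34 of 45 tested, 0 called without and 2 higher with the block, at a median of 0.04. Unadjusted, 4 were higher and 1 lower at p under 0.05. LotjaGi6g1v0294100, the adenylylsulfate reductase that commits sulphate to reduction, had 57.7, 35.3 and 37.6 FPKM in *Ljasn1-2* shoots, against 29, 23.8 and 23.3 FPKM in WT shoots (log2 fold change 0.73 ± 0.20, adjusted p = 0.408 without and 0.00949 with the replicate block). The sums over the list were 1479, 1304 and 1283 FPKM in *Ljasn1-2* shoots, against 1237, 1131 and 1157 FPKM in WT shoots, with each *Ljasn1-2* library above each WT library. In the ubiquitin and proteasome list 0 of 99 tested genes were called without the block, 3 higher and 0 lower reached an unadjusted p under 0.05, and 3 rose with the block. LotjaGi3g1v0135400, a polyubiquitin gene, had 55.7, 44.4 and 49 FPKM, against 29, 25.3 and 31.8 FPKM in WT (adjusted p = 0.0915 without and 0.00403 with it). The heat shock and chaperone list, 148 tested of 236, likewise had 0 calls without and 4 higher with the block, and 10 higher and 2 lower at an unadjusted p under 0.05. One of the 4 was the mitochondrial HSP70 gene LotjaGi4g1v0041900, at 39.4, 37.1 and 37.2 FPKM in *Ljasn1-2* shoots, against 25, 26 and 28.2 FPKM in WT shoots (adjusted p = 0.192 without and 0.0195 with it). For the lists of this paragraph the background was 1.01% higher with the block, and 5.04% in either direction at an unadjusted p under 0.05.

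**Figure D4:**
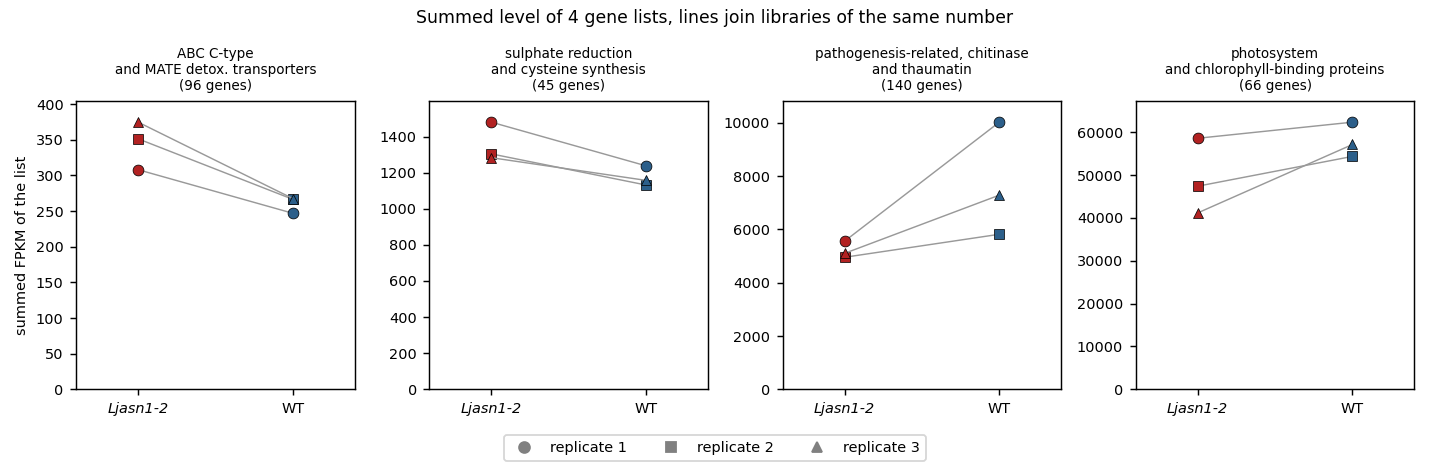
Summed FPKM (y axis, from 0) of 4 gene lists in each library, with the 3 *Ljasn1-2* shoot libraries left of the 3 WT shoot libraries and lines joining libraries of the same number. For the pathogenesis-related list the *Ljasn1-2* sums lie at 4954 to 5557 FPKM and the WT sums at 5818 to 10025 FPKM.

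Photosystem and chlorophyll-binding genes, which capture light in the chloroplast, had 41 of 66 tested, 0 called with or without the block and 0 at an unadjusted p under 0.05 in either direction in limma. Their values nonetheless leaned one way: 36 were below 0 and 5 above, at a median of -0.21. The sums were 58612, 47421 and 41184 FPKM in *Ljasn1-2* shoots, against 62371, 54380.0 and 57158 FPKM in WT shoots, lower in *Ljasn1-2* in each of the 3 same-numbered pairs, while across numbers the genotypes overlapped. Ribosomal protein genes, 278 tested, had 0 calls in both fits, 0 at an unadjusted p under 0.05 and a median of 0.02. Cell cycle and histone genes had 0 of 116 called, 0 higher and 4 lower at an unadjusted p under 0.05, and 2 lower with the block. Clock and flowering genes had 0 of 42 called, 1 higher and 2 lower unadjusted, and 1 higher with the block, a CONSTANS-like gene (LotjaGi1g1v0746000) with 26.9, 26.8 and 29.96 FPKM in *Ljasn1-2* shoots, against 16.4, 17.5 and 17.3 FPKM in WT shoots (adjusted p = 0.0503 without and 0.00463 with it). Antioxidant enzymes had 0 of 29 called, 0 higher and 1 lower unadjusted, and 1 lower with the block, an iron superoxide dismutase (LotjaGi5g1v0257700) with 33, 21.6 and 23.8 FPKM in *Ljasn1-2* shoots, against 92.5, 30.7 and 99.6 FPKM in WT shoots (adjusted p = 0.581 without and 0.0396 with it). In the disease resistance list 1 of 124 tested genes rose, and in the transposon-derived list 1 of 140 rose and 1 fell (background 0.34% higher and 0.0928% lower). With the block 3 of the transposon-derived genes rose and 3 fell. For all lists of this paragraph the background was 1.01% higher and 0.712% lower with the block. At an unadjusted p under 0.05 it was 5.04% in either direction.

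The genotype effect of the NS shoots was then set beside that of the S shoots, whose libraries are separate. By the study's methods the S plants were also older at harvest, so growth condition and age cannot be told apart. In S shoots 17 of 16010 tested genes were called (0.106%). Of the 55 genes higher in NS *Ljasn1-2* shoots, 37 were tested in S shoots, where 4 were called in the same direction (background 0.05% higher) and 0 in the opposite one. Of the 15 lower genes 14 were tested in S shoots and 7 were called lower there as well (background 0.0562%). The ABCC3 gene LotjaGi1g1v0018500 had 1.05, 1.02 and 0.727 FPKM in S *Ljasn1-2* shoots, against 1.13, 0.877 and 1.03 FPKM in S WT shoots, and NFXL1 (LotjaGi4g1v0465300) had 8.76, 7.43 and 7.03 FPKM, against 7.44, 7.71 and 9.38 FPKM in S WT. For both, the genotypes overlapped in S shoots, at the level of NS WT shoots. The difference itself was tested as an interaction of genotype with condition in the 12 shoot libraries. It was significant in limma for 36 of 16650 genes (0.216%), the effect being more positive under NS conditions in 35 of them, and for 95 genes (0.571%) with the replicate block. ABCC3 (LotjaGi1g1v0018500) had an interaction of 3.09 ± 0.19 on the log2 scale (adjusted p = 1.68e-05), NFXL1 of 2.84 ± 0.22 (adjusted p = 1.12e-04) and NDB2 (LotjaGi6g1v0339200) of 1.83 ± 0.17 (adjusted p = 3.16e-04). *LjASN1* (LotjaGi1g1v0118200) fell in both conditions, with 3.76, 5.89 and 4.65 FPKM in S *Ljasn1-2* shoots, against 78.8, 84.3 and 98.6 FPKM in S WT shoots, and its interaction was 0.29 ± 0.25 (adjusted p = 1).

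Roots under NS conditions gave 7 calls of 16172 tested genes (0.0433%). Of the 55 higher genes 42 were tested in NS roots, where 3 were called higher (background 0.0186%) and 1 lower (background 0.0247%). For 10 of the 42 the 3 *Ljasn1-2* root libraries lay below the 3 WT root libraries (background 4.74%), and for 9 above (background 5.53%). Of the 15 lower genes 5 were tested in NS roots, where 2 were called lower and none higher, and for 4 of the 5 the *Ljasn1-2* libraries lay below WT and for 0 above. The gene called in opposite directions was NDB2 (LotjaGi6g1v0339200), with 0.372, 0.634 and 0.638 FPKM in NS *Ljasn1-2* roots, against 4.58, 4.77 and 4.13 FPKM in NS WT roots (log2 fold change -1.83 ± 0.12, adjusted p = 0.00897). Every WT root library thus had more of it than any WT shoot library, and every *Ljasn1-2* root library less than any *Ljasn1-2* shoot library. NFXL1 (LotjaGi4g1v0465300) had 3.26, 3.43 and 6.51 FPKM in NS *Ljasn1-2* roots, against 22.6, 21.8 and 19 FPKM in NS WT roots (log2 fold change -2.08 ± 0.23, adjusted p = 0.0523), and P450 82A1 (LotjaGi2g1v0251800) 13.5, 13.2 and 19.7 FPKM, against 34.9, 37.2 and 29.4 FPKM in NS WT roots (log2 fold change -1.10 ± 0.19, adjusted p = 0.23). Neither passed in roots, although their root libraries did not overlap. The interaction of genotype with tissue was significant for 52 of 17903 genes (0.29%), 43 with a more positive effect in shoots, and for 81 with the replicate block (0.452%). For NDB2 (LotjaGi6g1v0339200) it was 3.98 ± 0.18 on the log2 scale (adjusted p = 7.80e-07) and for NFXL1 (LotjaGi4g1v0465300) 4.85 ± 0.31 (adjusted p = 2.29e-05).

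**Figure D5:**
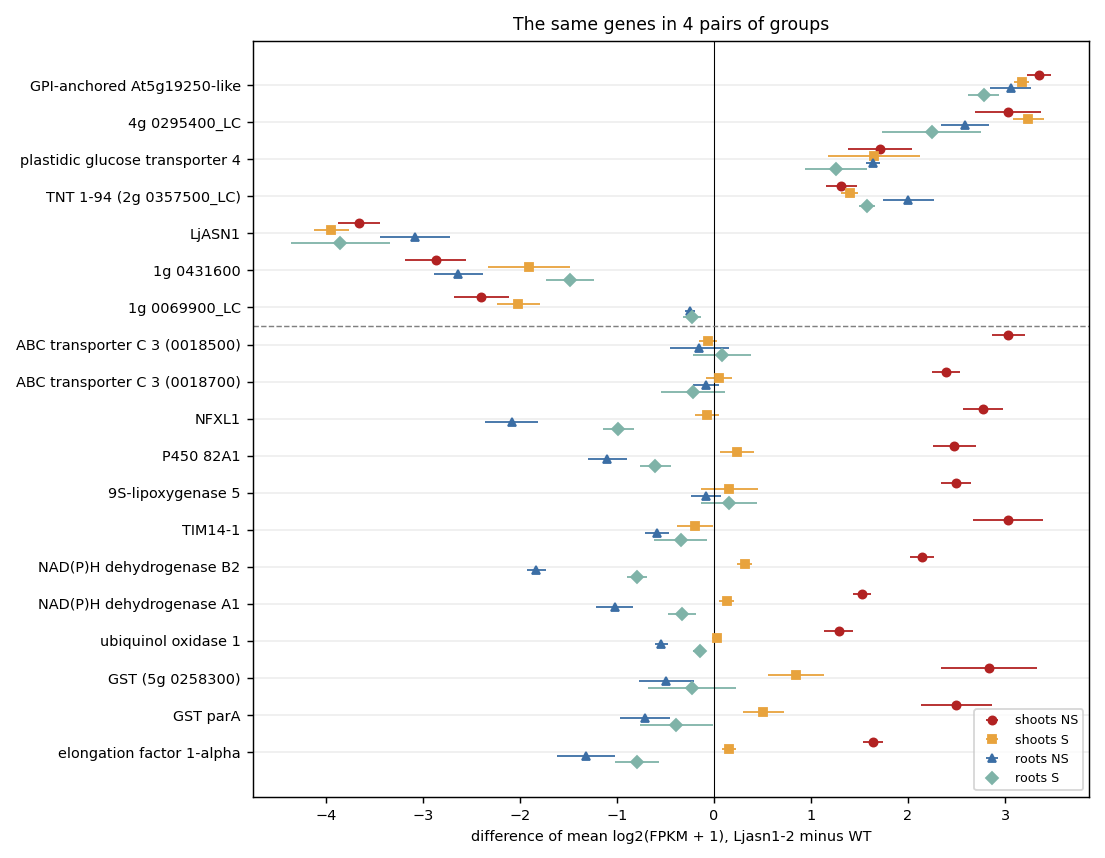
Log2 fold change of *Ljasn1-2* over WT, with the standard error from the libraries of each comparison, in NS shoots, S shoots, NS roots and S roots for genes named in the text. NDB2 is at 2.15 in NS shoots and -1.83 in NS roots, whereas *LjASN1* is below -3 in all 4 comparisons.

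A small set lay apart in every tissue and condition. For 11 of the 70 called genes, 4 higher and 7 lower, the *Ljasn1-2* and WT libraries lay apart in the same direction in all 4 comparisons of tissue and condition, as they did for 21 of all 16159 tested genes (0.13%). All 70 already lay apart in NS shoots, where only 1781 of the 16159 did (11%). The 70 thus met that part in advance, and the 0.13% has an unlike base. The 11 comprise *LjASN1*, a GPI-anchored protein gene (LotjaGi5g1v0220200), plastidic glucose transporter 4, PIN5, LotjaGi1g1v0431600 and 6 low-confidence gene models, marked _LC in the annotation. The GPI-anchored protein gene had a log2 fold change of 3.35 in NS shoots, above every other increase described here, and was called whichever library was left out. Its values were 3.17 in S shoots, 3.06 in NS roots and 2.78 in S roots. Lying apart is not a call: of the 11, 10 passed the filter on low values in S shoots, 6 in NS roots and 6 in S roots, the others being too low there to be tested. LotjaGi1g1v0069900_LC differed by only -0.25 in NS roots and -0.22 in S roots. One of these models, LotjaGi2g1v0357500_LC, derived from a transposon, had 1.01, 1.6 and 1.94 FPKM in *Ljasn1-2* shoots and no read in WT shoots, and was at least 15.6-fold higher at a floor of 3 reads per library. It passed the filter only through the *Ljasn1-2* libraries. It lost its call without *Ljasn1-2* library 2 or 3 or WT library 2 or 3 (adjusted p = 0.0565 to 0.0856). In all, 15 of the 70 called genes were low-confidence models, 0.994% of the 1509 such models tested, against 0.433% of all tested genes. Such models made up 9.34% of the tested genes. No description was given for 14 of the 70, a count with no share over all genes beside it. Near the insertion, *LjASN1* was the 1 called gene of 55 tested within 1 Mb, and of 243 tested within 5 Mb, on either side. With the block 2 and 4 genes were called at these distances, *LjASN1* included (background 1.72%). At an unadjusted p under 0.05 there were 6 of the 55 and 17 of the 243 (background 5.04%). Low-confidence and neighbouring gene models may share reads, and some called genes, among them LotjaGi1g1v0018500 (ABCC3), LotjaGi1g1v0772900 (9-lipoxygenase) and LotjaGi2g1v0344500 (alternative oxidase), overlap another model on the opposite strand. Whether the counting used strand is not given in the sources used here, so levels of such genes are uncertain.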

How the data were processed

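Strand-specific poly(A) libraries were made and sequenced by Novogene. The authors named fastp, featureCounts 1.5.0-p3 and DESeq2 1.20.0, and the aligner is not given in the sources used here. The unit of the deposited table is recorded as other: FPKM whose values of 1 or more had lost their decimal points, with the gene length in bases. Of 725832 values, 384363 were restored to whole numbers of reads from the intact values, the replicates and the order of the rows, and 0 failed; for 18 genes in these libraries a second placement was possible.

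The table of FPKM, all of whose per-sample columns were used, was tested in R 4.3.3 with limma 3.58.1 on log2(FPKM + 1) with an intensity trend, keeping genes that reached 1 FPKM in 3 or more of the 6. Tests were two-sided with Benjamini-Hochberg adjustment over all tested genes, and a gene was called at an adjusted p under 0.05. The fitting step was checked on simulated data. Interactions were fitted on 12 libraries with the same filter. The tests had been planned for an undamaged FPKM table and were not altered. Standard errors come from the spread between libraries, whereas the floors of 3 reads cover counting error only. PCR duplicates cannot be seen in the table.

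Replicate numbers were taken as pairs because the deviations of same-numbered libraries from their genotype means correlated by 0.69, 0.47 and 0.45. Between numbers 2 and 3 of opposite genotypes the values were 0.49 and 0.31, so the pairing of these is assumed. The labels give the numbers but not what they mark. The rule for naming took the 20 largest increases, all decreases, the members with the smallest p in 31 gene lists (up to 4 each, of which a part is described), and up to 5 genes per interaction. Other called genes and asparaginases were added after their values were seen. Members and lists were chosen with earlier results of these data known. Alternatives were the filter, the pseudocount, the block, quantile normalization, voom weights, all 12 shoot libraries in the fit, and leaving out each library, with 2 more chosen after seeing the data: leaving out both libraries numbered 1, and leaving out genes with a second placement. Figures were drawn with matplotlib 3.10.9.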

Additional observations from a re-analysis of the deposited data

Results flagged for a closer look

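The genotype effect in shoots differed between NS and S conditions, which by the study's methods also differed in plant age, for 36 of 16650 genes by the interaction test in limma. Both ABCC3 genes were among them, LotjaGi1g1v0018500 with an interaction of 3.09 on the log2 scale (adjusted p = 1.68e-05) and LotjaGi1g1v0018700 with 2.34 (adjusted p = 1.25e-04). So were TIM14-1 (LotjaGi5g1v0075600) with 3.23 (adjusted p = 0.0017), NFXL1 (LotjaGi4g1v0465300) with 2.84 (adjusted p = 1.12e-04) and NDB2 (LotjaGi6g1v0339200) with 1.83 (adjusted p = 3.16e-04). In S shoots TIM14-1 had 0.572, 0.222 and 0.271 FPKM in *Ljasn1-2*, against 0.868, 0.319 and 0.50 FPKM in WT, so the genotypes overlapped. Among the shoot libraries TIM14-1 passed the filter only through the NS *Ljasn1-2* ones, where it was high. Its selection for the test thus favoured a positive interaction.

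The genotype effect under NS conditions differed between shoots and roots for 52 of 17903 genes. The interactions were 3.98 for NDB2 (LotjaGi6g1v0339200), 4.85 for NFXL1 (LotjaGi4g1v0465300), 3.57 for P450 82A1 (LotjaGi2g1v0251800), 2.55 for NDA1 (LotjaGi4g1v0050800) and 2.47 for ABCC3 (LotjaGi1g1v0018700), with adjusted p from 7.80e-07 to 1.49e-04. NDA1 had 0.842, 0.537 and 0.622 FPKM in NS *Ljasn1-2* roots, against 2.88, 2.73 and 1.67 FPKM in NS WT roots, below WT in roots and above it in shoots in every library.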

How the results depend on the processing

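Against 55 genes higher and 15 lower in *Ljasn1-2* shoots, the replicate block gave 163 and 115, a fit on all 12 shoot libraries 87 and 29, and voom weights 48 and 7. Without both libraries numbered 1, an alternative chosen after seeing the data, there were 114 and 53. Leaving out single libraries gave 31 to 59 higher and 6 to 15 lower, fewest higher without WT library 3. The counts stayed within 1.5 times with no filter (37 and 12), a pseudocount of 0.1 FPKM (55 and 11), quantile normalization (60 and 18) and, chosen after seeing the data, without genes with a second placement (56 and 15). Of the 70 calls, 38 were kept with no filter, 52 with voom weights, 64 without the libraries numbered 1, 36 to 52 without 1 library and 65 to 70 under the others, and none of the 70 changed sign.

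The pairing by replicate number raised the counts of interactions, to 95 genes with condition, against 36 without the block, and to 81 with tissue, against 52. Leaving out single libraries gave 26 to 40 and 39 to 52. Beyond the calls gained, the block changed no call among the 70.

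Depth was 39.6 to 66.8 M reads on genes, and 3 pools per genotype set the precision. Levels of near-identical genes and overlapping models are uncertain because the treatment of reads matching more than 1 gene is not stated. Genotype, line and any remaining insertion of *Ljasn1-2* cannot be told apart, and age and harvest time are given differently in the labels and the methods.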
